A study of Rattus norvegicus with 32 samples.

Results

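The GABA-A receptor subunits described here were Gabra2, Gabra3, Gabra4 and Gabra5, which encode alpha subunits, Gabrb1 and Gabrb2, which encode beta subunits, and Gabrd, which encodes the delta subunit. They were taken by gene symbol as a set of 7 genes of the 28914 in the count files, and all 7 passed the filter on low counts in each of the 11 comparisons made. RNA-seq had been carried out on 32 samples of 4 brain regions, the nucleus accumbens (NAc), the subventricular zone (SVZ) and, in the hippocampus, Ammon's horn (CA) and the dentate gyrus (DG), of adult male Sprague-Dawley rats, a common outbred laboratory strain, with 4 samples for each region and treatment. METH rats had received (+)-methamphetamine hydrochloride intraperitoneally in 4 injections of 10 mg/kg spaced 2 h apart, a binge regimen that is toxic to dopamine terminals, and control rats had received saline at 1 mL/kg on the same schedule. Tissue had been taken 24 h after the last injection.

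GABA-A receptors are chloride channels built from subunits around a central pore, and they carry most fast inhibition in the brain. The alpha subunit sets where a receptor sits and how it responds to GABA and to benzodiazepines. Receptors with a gamma subunit mostly cluster at synapses, whereas those with delta, which pairs mainly with alpha4 in the forebrain and thalamus, lie outside synapses and answer low ambient GABA with a lasting, tonic current. Receptors with alpha5 also carry tonic current in hippocampal pyramidal cells, alpha2 is common at synapses of the hippocampus and striatum, and alpha3 is found in thalamic reticular, monoaminergic and deep cortical neurons. Beta subunits form the GABA binding site together with alpha and tie receptors to the trafficking machinery.

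On rn6, the build of the count files, Gabrb1 (chr14:38643385-39112600, minus strand), Gabra4 (chr14:39154529-39231695, plus strand) and Gabra2 (chr14:39661968-39798302, plus strand) lie in one cluster, in which Gabra4 and Gabrb1 are 41.9 kb apart. Gabrb2 lies at chr10:27973681-28187565 on the plus strand, Gabra5 at chr1:112833944-112947451 on the minus strand, Gabra3 at chrX:152414615-152642531 on the minus strand, and Gabrd, with no other subunit gene near it, at chr5:172797450-172809353 on the minus strand. Exons of Gabra5 share bases with AABR07003500.2, so that reads in the shared bases may have been left out of the Gabra5 counts, which are uncertain to that extent.

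RefSeq promoter sequences on GRCr8, which run from 250 bases before to 50 bases after the annotated start, were matched for 6 of the 7 genes, all except Gabra2. The promoters of Gabra4 (chr14:36944497-36944796, plus strand) and Gabrd (chr5:171252660-171252959, minus strand) are shown because the levels of these genes had the highest correlation across samples of any members, with each GC box, GGGCGG or its complement CCGCCC, in capitals.
Gabra4: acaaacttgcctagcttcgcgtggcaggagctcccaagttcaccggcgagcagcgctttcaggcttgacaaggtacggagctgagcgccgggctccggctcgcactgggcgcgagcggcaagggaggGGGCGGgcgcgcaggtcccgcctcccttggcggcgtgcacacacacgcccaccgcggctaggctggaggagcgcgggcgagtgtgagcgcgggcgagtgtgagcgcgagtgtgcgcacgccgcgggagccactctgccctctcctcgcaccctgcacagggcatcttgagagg
Gabrd: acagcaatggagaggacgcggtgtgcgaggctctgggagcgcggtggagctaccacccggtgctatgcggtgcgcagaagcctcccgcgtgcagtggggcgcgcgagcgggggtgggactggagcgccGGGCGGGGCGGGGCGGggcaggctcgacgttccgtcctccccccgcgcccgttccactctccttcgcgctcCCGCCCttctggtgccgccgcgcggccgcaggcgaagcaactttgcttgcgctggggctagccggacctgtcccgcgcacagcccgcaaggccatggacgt
Both were rich in G and C, at 70.7% for Gabra4 and 73.7% for Gabrd, against a median of 51.7% over all 33469 promoters. Gabra4 held 1 GC box, Gabrd 4, 3 of which overlap, and Gabra5 1, while Gabra3, Gabrb1 and Gabrb2 held 0. The motif was in 33.1% of all promoters. Searches on both strands for the CRE (TGACGTCA, in 1.83% of all promoters), AP-1 (TGAGTCA, 4.63%) and EGR (GCGGGGGCG, 2.73%, and GCGTGGGCG, 0.544%) motifs matched none of the 6 promoters, and TATAAA (14.2%) matched that of Gabra3 only.

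Gabrb1 (chr14:36902844-36903143, minus strand) and Gabrb2 (chr10:27439543-27439842, plus strand), paralogs on different chromosomes, are shown because their promoters shared 3 runs of 10 or more bases, given in capitals. This search was chosen after the sequences had been seen.
Gabrb1: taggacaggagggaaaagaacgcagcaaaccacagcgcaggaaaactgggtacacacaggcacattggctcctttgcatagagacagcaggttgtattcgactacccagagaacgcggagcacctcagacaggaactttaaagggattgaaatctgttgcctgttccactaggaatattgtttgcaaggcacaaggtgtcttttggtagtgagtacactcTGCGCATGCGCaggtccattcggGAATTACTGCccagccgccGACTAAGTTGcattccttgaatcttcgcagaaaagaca
Gabrb2: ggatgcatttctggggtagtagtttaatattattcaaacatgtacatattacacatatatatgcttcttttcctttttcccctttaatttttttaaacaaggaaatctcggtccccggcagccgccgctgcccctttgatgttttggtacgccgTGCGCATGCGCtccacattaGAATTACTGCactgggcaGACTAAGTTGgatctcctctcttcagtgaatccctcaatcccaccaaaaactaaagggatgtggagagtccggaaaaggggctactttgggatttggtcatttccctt
The runs came in the same order in both promoters. TGCGCATGCGC was present in 127 promoters (0.379%), GAATTACTGC in 7 (0.0209%) and GACTAAGTTG in 3 (0.00896%). The other 14 pairs of the 6 promoters shared between 0 and 2 such runs.

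Total counts ranged from 11094002 to 21869773 per sample, and levels are given as CPM, that is, reads scaled to a common library size, in which 1 read was worth 0.0442 to 0.0934 CPM. The lowest value of any member was 43 reads. Several libraries stood apart from their labels by marker genes. DG Sal 3 held 7 striatal marker genes at a summed 1631 CPM, against 159 to 364 CPM in the other 7 DG samples, and its summed dentate granule markers (6 genes) were the lowest of the DG, at 37.9 CPM. The same dentate sum was 49.2 to 232 CPM in the other saline DG samples and 86.1 to 454 CPM in the METH DG samples, with the METH range partly above the saline range, and reached 376 and 438 CPM in CA Sal 1 and CA Sal 3. SVZ Sal 1, SVZ METH 2 and SVZ METH 4 held 6 thalamic markers at 2080, 1855 and 1238 CPM, against at most 525 CPM in the other 5 SVZ samples, and NAc METH 3 held the striatal markers at 151 CPM, against 1326 to 8068 CPM in the other 7 NAc samples. Choroid plexus markers reached 2029 CPM in DG Sal 4, 6060.5 CPM in DG METH 3, 2199 CPM in CA Sal 2 and 7983 CPM in SVZ METH 3. The summed CA pyramidal markers (6 genes) were 622 to 928 CPM in the CA, within the 127 to 1019 CPM of the METH NAc samples, and Fibcd1, a marker of dorsal CA1, was at 0 in every sample except CA Sal 3 and CA METH 3, with 1 read each. Numbers in the column headers of the counts were read here as library numbers. They place DG Sal 1 and 2 under numbers that METH samples carry in the NAc and CA, and DG METH 1 and 2 under saline numbers. The 4 SVZ METH samples carry only 2 numbers. The labels do not settle whether those 4 DG samples have the other treatment or whether the SVZ METH samples come from 2 animals, and all were kept as labelled. In these bulk samples, fewer cells of a type and less RNA per cell cannot be told apart.

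Per kb of exon, Gabra2 had the highest mean level of the set, at 67.3 ± 26.9 CPM per kb over the 32 samples (SD, n = 32), followed by Gabrb2 (45.2 ± 18.1), Gabrb1 (41.1 ± 14.7), Gabra4 (39.2 ± 19.0), Gabra5 (23.7 ± 19.4), Gabrd (22.0 ± 18.5) and Gabra3 (18.4 ± 7.16). From Gabrb2 down to Gabra4 and from Gabra5 down to Gabra3, the means lay closer together than their SDs. The genes differed more in how widely they ranged. Gabrd spanned 55.9-fold between its lowest and highest sample and Gabra5 38.0-fold, whereas Gabra4, Gabra3 and Gabra2 spanned 9.03-, 8.45- and 7.72-fold and Gabrb1 and Gabrb2 4.49- and 4.10-fold. The plot of levels by region shows where these ranges arose.

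**Figure D1:**
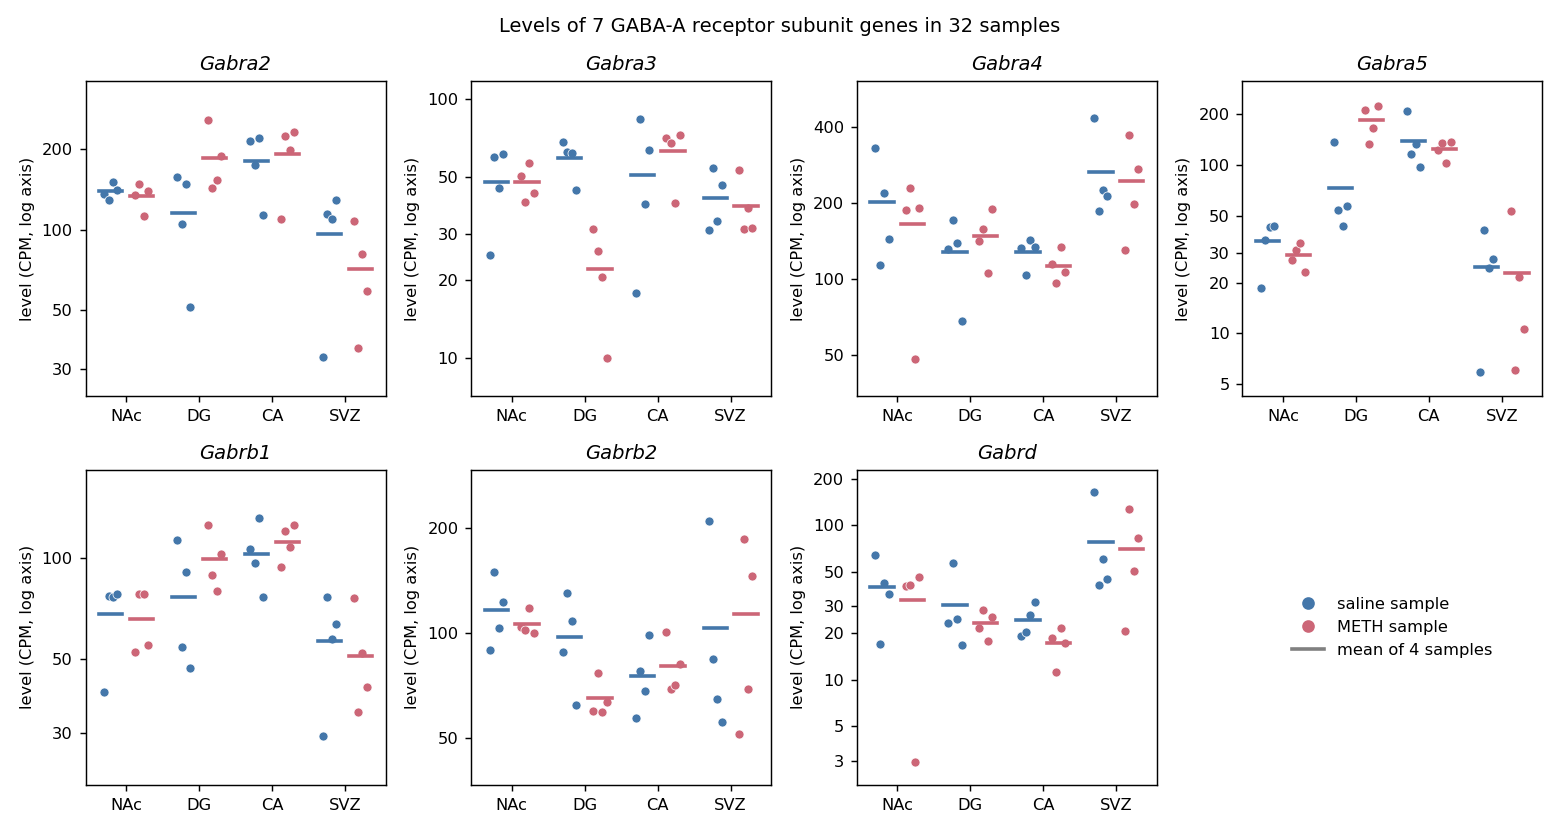
Level of each of the 7 subunit genes in CPM (log axis) by region, with 1 point per sample (blue, saline; red, METH) and a bar at the mean of 4 samples. The 4 METH points of Gabra3 in the DG, at 9.93 to 31.6 CPM, lie below its 4 saline points, at 44.4 to 68.4 CPM.

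To ask whether METH altered the subunits, METH and saline samples were compared within each region by edgeR's quasi-likelihood test over all genes, with a call at a false discovery rate (FDR) under 0.01 and a fold above 1.5. No member was called in any region, and no gene at all was called of 14771 tested in the NAc, 14800 in the DG, 14612 in the CA or 15579 in the SVZ (0% each). The members nearest to a call were all in the DG. There, an unadjusted p under 0.05 was reached by 1 higher and 2 lower members, against 6.35% and 6.42% of all genes in those directions. In the NAc, 0 members reached it, against 2.42% of genes higher and 0.968% lower, in the CA 0, against 4.37% and 2.79%, and in the SVZ 0, against 1.19% and 1.39%. By DESeq2 and by edgeR's likelihood ratio test, 1 member, Gabra3 in the DG, was called, along with 176 and 117 genes overall.

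Gabra3 was at 68.4, 62.5, 61.7 and 44.4 CPM in the saline DG and at 31.6, 25.8, 20.6 and 9.93 CPM in the METH DG. All 4 METH samples were below all 4 saline samples, an order seen for 3.66% of genes in this comparison. The log2 fold change was −1.41 ± 0.31 (SE), with an unadjusted p of 0.00163 and an FDR of 0.172 in edgeR's quasi-likelihood test, so that the difference did not pass the test once all genes were counted. The FDR was 0.00305 by DESeq2 and 0.00444 by the likelihood ratio test, and ranged from 0.00305 to 0.731 over all alternatives. The estimate was −1.38 without DG Sal 3, the library with striatal markers, and −1.80 without replicates 1 and 2 of both treatments, whose library numbers are crossed. Run was inferred here from the column headers of the counts. By this inference, DG Sal 1, 2 and 4 were of run 3 and DG Sal 3 of run 1. DG METH 1 and 2 were of run 1, and DG METH 3 and 4 of run 2. Only DG Sal 3 shares an inferred run with METH samples. Without DG Sal 3, run as inferred and treatment cannot be told apart for any member in the DG. Across the 8 DG samples Gabra3 had a correlation of −0.64 with the astrocyte marker sum, −0.48 with the dentate sum and 0.44 with the striatal sum. The astrocyte sum (6 genes) was 2387 to 3095 CPM in the saline and 3375 to 3686 CPM in the METH DG, without overlap, and the part of these markers in the difference was not tested.

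Gabra5 differed in the opposite direction. It was at 137, 53.9, 43.2 and 57.4 CPM in the saline DG and at 214, 133, 166 and 225 CPM in the METH DG. Of the METH samples 3 were above all saline samples, and DG Sal 1 was above METH 2, so that the groups overlapped. The log2 fold change was 1.36 ± 0.36 (SE), with an unadjusted p of 0.00476 and an FDR of 0.212 (0.0174 by DESeq2). It was 1.18 without DG Sal 3, 1.84 without DG Sal 1 and 1.94 without replicates 1 and 2 of both treatments, with an FDR of 0.0459 in the second of these. Over the 8 DG samples the correlation of Gabra5 with the dentate sum was 0.77, with astrocyte markers 0.82 and with striatal markers −0.68. DG METH 3, with Gabra5 at 166 CPM, had a dentate sum of 86.1 CPM, below those of DG Sal 1 (232 CPM) and DG Sal 4 (155 CPM). The part of these markers in the difference was not tested.

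**Figure D2:**
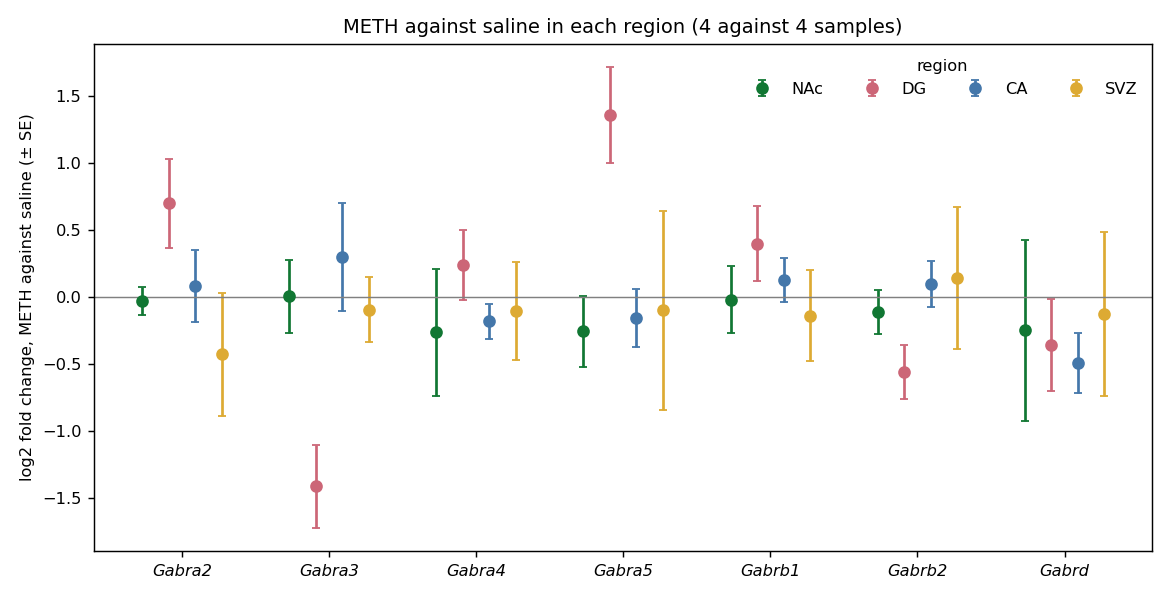
Log2 fold change of METH against saline for each subunit gene in each region, with bars of 1 SE from edgeR (4 against 4 samples). Gabra3 and Gabra5 in the DG lie farthest from 0, at −1.41 and 1.36, and no point passed the test.

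Gabrb2, which encodes a beta subunit widely used at synapses, was at 88.3, 131, 108 and 62.3 CPM in the saline DG and at 59.9, 76.9, 59.6 and 63.6 CPM in the METH DG. The groups overlapped, since DG Sal 4 lay among the METH samples, and the log2 fold change was −0.56 ± 0.20 (SE; FDR 0.306). Gabra2 had a log2 fold change of 0.70 ± 0.33 (FDR 0.430; 0.46 without DG Sal 4) in the DG, with METH samples at 143 to 257 CPM and saline samples at 51.2 to 157 CPM. The remaining DG differences were 0.40 ± 0.28 for Gabrb1, 0.24 ± 0.27 for Gabra4 and −0.36 ± 0.34 for Gabrd, with FDRs of 0.618, 0.785 and 0.742.

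**Figure D3:**
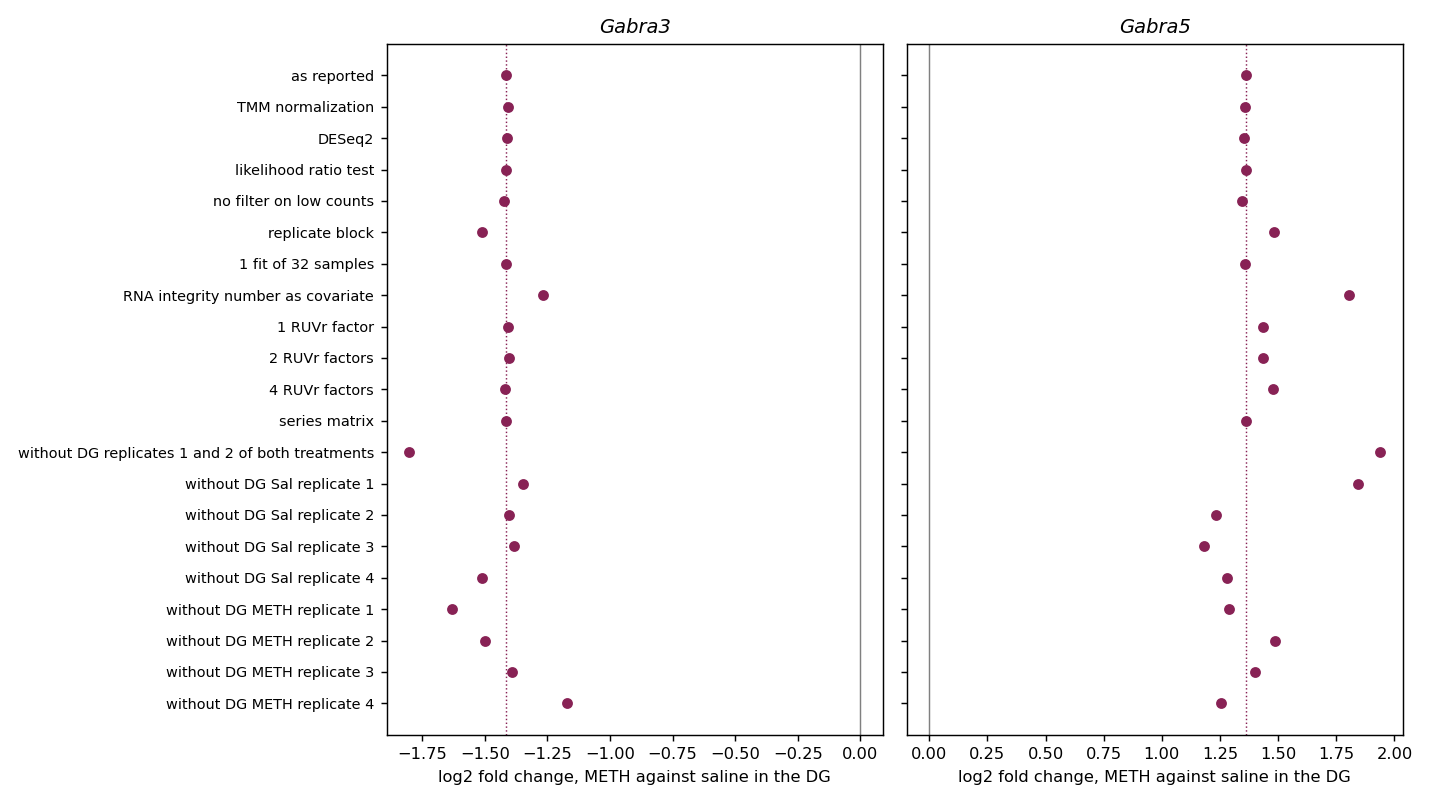
Log2 fold change of METH against saline in the DG for Gabra3 (left) and Gabra5 (right) under each alternative, with the solid line at 0 and the dotted line at the reported value. Every Gabra3 estimate lies between −1.80 and −1.17 and every Gabra5 estimate between 1.18 and 1.94.

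The METH effects in the DG and the CA, the neighbouring hippocampal field, were then set against each other in an interaction term. Gabra3 was at 17.9, 84.0, 39.2 and 63.4 CPM in saline CA and at 70.9, 68.0, 39.5 and 72.8 CPM in METH CA, a log2 fold change of 0.30 ± 0.41, and its effect in the DG differed from this by −1.72 ± 0.56 on the log2 scale (FDR 0.180).
Gabra5 was at 208, 117, 134 and 96.9 CPM in saline CA and at 123, 136, 103 and 136 CPM in METH CA, a log2 fold change of −0.16 ± 0.22, and its effect in the DG was 1.51 ± 0.45 higher (FDR 0.155). The interaction of Gabrb2 was −0.67 ± 0.28 (FDR 0.278). These members, 1 higher and 2 lower, were those with an unadjusted p under 0.05, against 7.26% and 8.11% of the 15308 genes tested, of which 0 were called (0%). Thus a difference between the 2 regions in the METH effect did not pass the test for any member.

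Outside the DG, the largest METH difference relative to its error was that of Gabrd in the CA, at 19.3, 20.3, 26.4 and 31.7 CPM in saline and 18.7, 11.2, 21.7 and 17.4 CPM in METH samples. Of the METH samples 3 were below all saline samples, and the log2 fold change was −0.49 ± 0.22 (unadjusted p 0.0526, FDR 0.705). It was −0.76 with sequencing run, as inferred from the column headers of the counts, as a covariate (FDR 0.891). In that fit CA Sal 1 and 2, marked as merged, had a level of their own, so that the estimate rests on CA Sal 3 and 4. The lowest FDR of any alternative was 0.0116, with 4 RUVr factors. In the NAc the estimates lay between −0.26 and 0.01 with FDR 0.999 for all 7 members. With RNA integrity as a covariate, Gabra4 was at −1.15 (FDR 0.399) and Gabrd at −1.38 (FDR 0.487), and with 4 RUVr factors, which are estimated from the residuals, at −0.36 (FDR 0.0228) and −0.60 (FDR 0.0846). In the SVZ they lay between −0.43 (Gabra2, ± 0.46) and 0.14 (Gabrb2, ± 0.53), and that of Gabra2 ran from −0.72 without SVZ Sal 1 to −0.21 without SVZ METH 2. Gabrb2 there was at 211, 84.3, 64.8 and 55.6 CPM in saline and 51.3, 187, 69.2 and 146 CPM in METH samples, so that its 3 highest values were those of SVZ Sal 1, METH 2 and METH 4, the samples with high thalamic markers. Without SVZ Sal 1, METH 2 and METH 4, an alternative chosen after seeing the data, Gabra3, Gabra5 and Gabrb2 changed sign in the SVZ, to 0.04, 0.28 and −0.15.

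The saline samples were compared between regions in a fit of the 16 saline samples, with a call at an FDR under 0.01 and a fold above 2. Again no member was called. Over all 15515 genes, 126 were called between CA and SVZ (0.812%), of which 81 were higher and 45 lower in the CA (0.522% and 0.29%). Between DG and SVZ 3 were called (0.0193%), 1 higher and 2 lower in the DG (0.00645% and 0.0129%), and between the other pairs 0 (0%). An unadjusted p under 0.05 was reached by 3 members higher and 2 lower in CA than in SVZ, against 12.3% and 19.3% of all genes. Between DG and SVZ it was reached by 1 higher and 2 lower (7.93% and 9.71% of genes), and between NAc and CA by 0 higher and 1 lower (13.6% and 10.5%). No member reached it between NAc and DG (5.22% of genes higher and 6.32% lower), NAc and SVZ (4.16% and 8.46%) or DG and CA (5.32% and 3.61%).

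Gabra5 had the widest regional range, with the order CA, DG, NAc, SVZ in saline samples and 5.61-fold between the first and last means. Its saline levels were 18.7, 36.0, 42.8 and 43.7 CPM in the NAc and 5.93, 41.1, 24.5 and 27.5 CPM in the SVZ, all below the 96.9 to 208 CPM of the CA. The log2 difference of CA over SVZ was 2.44 ± 0.51 (SE; FDR 0.0120) and that of NAc over CA −1.94 ± 0.50 (FDR 0.0418). Groups that did not overlap in these directions were found for 11.3% and 11% of all genes. Neither passed the FDR limit of 0.01. Without DG Sal 3 and SVZ Sal 1, chosen after seeing the data, the FDRs were 0.00445 and 0.00521 and both differences were called, as they were by DESeq2 (2.2e-05 and 0.0017). The shares of all genes called under these settings are not given here. DG and SVZ differed by 1.52 ± 0.50 (FDR 0.156) with groups that did not overlap (2.66% of genes), and the neighbours DG and CA by −0.92 ± 0.49 (FDR 0.589; −1.41 without DG Sal 1).

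Gabrd and Gabra4 were highest in the SVZ and followed the order SVZ, NAc and then the hippocampal fields. Gabrd was at 164, 41.2, 60.5 and 45.0 CPM in saline SVZ, 64.0, 17.1, 42.1 and 35.9 CPM in saline NAc, 23.2, 57.0, 24.9 and 16.8 CPM in saline DG and 19.3, 20.3, 26.4 and 31.7 CPM in saline CA. All saline SVZ samples were above all saline CA samples, as for 9.45% of genes, and SVZ Sal 1, with its high thalamic markers, was far above the rest. The log2 difference of CA against SVZ was −1.70 ± 0.48 (FDR 0.0343), and −1.05 without SVZ Sal 1. DESeq2 and the likelihood ratio test called it, at FDRs of 0.00725 and 0.00697, and the shares of all genes that they called are not given here. That of DG against SVZ was −1.38 ± 0.48 (FDR 0.170), and −0.73 without SVZ Sal 1.

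Gabra4 was at 433, 185, 224 and 213 CPM in saline SVZ, 330.1, 113, 219 and 143 CPM in saline NAc, 131, 171, 139 and 68.2 CPM in saline DG and 132, 103, 142 and 134 CPM in saline CA. The SVZ samples did not overlap with those of the DG (2.83% of genes) or the CA (9.45% of genes). Its log2 difference was −1.08 ± 0.34 both for CA against SVZ (FDR 0.0476, and −0.75 without SVZ Sal 1) and for DG against SVZ (FDR 0.141), whereas DG and CA did not differ beyond their spread (0.00 ± 0.33).

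Gabra2 and Gabrb1 were highest in the CA. The log2 difference of CA over SVZ was 0.86 ± 0.38 for Gabra2 (FDR 0.135; 0.57 without SVZ Sal 1) and 0.82 ± 0.33 for Gabrb1 (FDR 0.108). The CA and SVZ samples of Gabrb1 did not overlap, as for 11.3% of genes in this direction. Gabra2 was at 136, 129, 151 and 141 CPM in saline NAc and at 33.3, 115, 109 and 129 CPM in saline SVZ. The groups did not overlap, as for 3.17% of genes, but the lowest NAc sample (128.925 CPM) and the highest SVZ sample (128.896 CPM) were nearly tied. The difference of 0.51 ± 0.38 did not pass the test (FDR 0.616) and was 0.23 without SVZ Sal 1. Gabra3 and Gabrb2 showed no regional difference in saline samples at an unadjusted p under 0.05, and their means spanned 1.43- and 1.54-fold. None of the differences between neighbours in any member's order passed the test.

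Over all 32 samples, Gabra4 and Gabrd were the most alike of any gene to each other: Gabrd ranked first of 14450 genes for Gabra4, and Gabra4 first for Gabrd, by Pearson's correlation of log2(CPM + 1) (r = 0.94, Spearman's rho = 0.95, n = 32). These points share libraries, depth and the regions' cell makeup, and the value is a description. Within regions r was 0.96 in the NAc, 0.67 in the DG, 0.79 in the CA and 0.99 in the SVZ (n = 8 each), but only in the SVZ was each again first for the other, and in the DG Gabrd ranked 1298 for Gabra4. With group means removed r was 0.94, and both ranked first. Without SVZ Sal 1, SVZ METH 2, SVZ METH 4 and NAc METH 3, r was 0.87, with ranks of 7 for Gabrd and 1 for Gabra4.

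The likeness extended to both extremes. NAc METH 3, with few striatal markers, held the lowest level of both genes (47.9 CPM for Gabra4 and 2.93 CPM for Gabrd, against 187 to 229 and 40.7 to 46.7 CPM in the other METH NAc samples), and SVZ Sal 1 held the highest. In the NAc both followed the striatal markers (r = 0.99 for Gabra4 and 0.97 for Gabrd, n = 8), and in the SVZ both followed the thalamic markers (r = 0.85 for each, n = 8) and ran opposite to the striatal markers (r = −0.74 and −0.71). Gabra4 stood at a median of 2.14 times Gabrd per kb, from 1.07 in SVZ Sal 1 to 6.64 in NAc METH 3. The genes lie on different chromosomes, whereas Gabra4's neighbours in its cluster, Gabrb1 and Gabra2, had r of −0.60 and −0.41 with it over the 32 samples. Within regions (n = 8 each), these values were not alike. Gabra2 with Gabra4 had r of 0.83 in the NAc, 0.67 in the DG, −0.12 in the CA and −0.87 in the SVZ, and Gabrb1 with Gabra4 had −0.57, 0.50, −0.14 and −0.94.

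**Figure D4:**
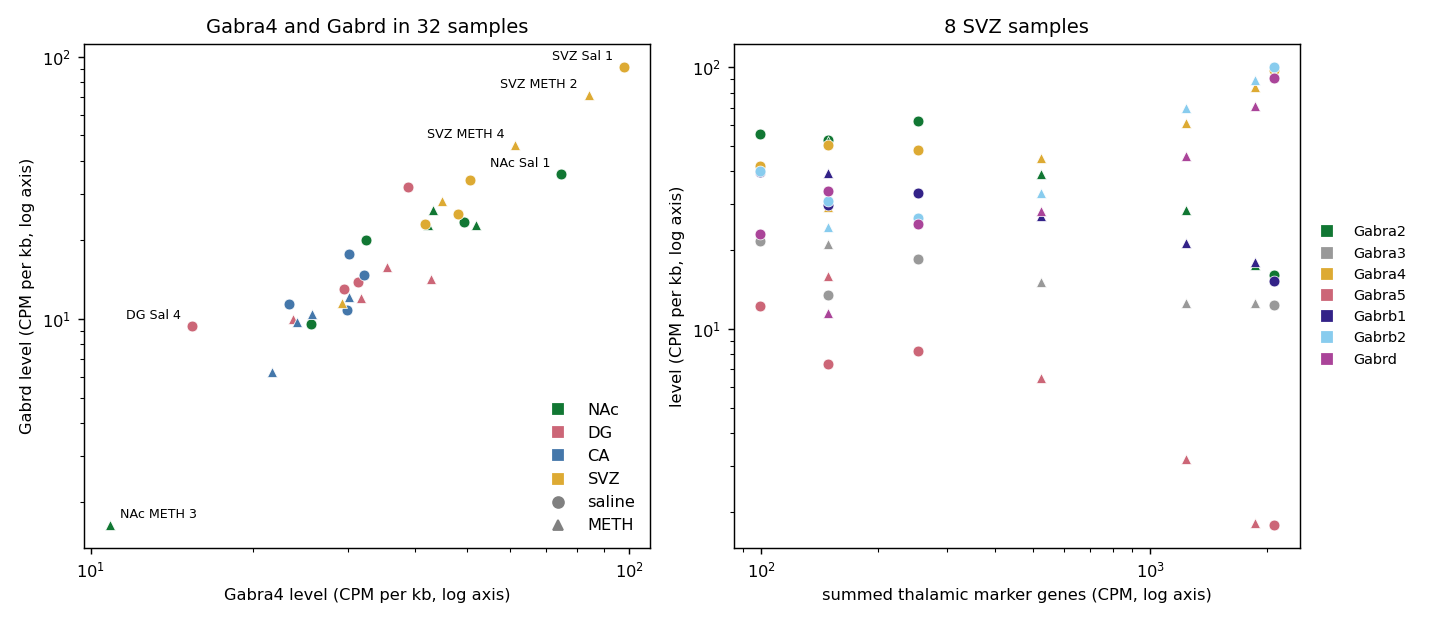
Left, Gabrd against Gabra4 in CPM per kb (log axes) in the 32 samples, coloured by region, with circles for saline and triangles for METH; r was 0.94. Right, the 7 members in the 8 SVZ samples (CPM per kb, log axis) against the summed thalamic markers (CPM, log axis); Gabra4, Gabrb2 and Gabrd are highest and Gabra2, Gabra5 and Gabrb1 lowest in SVZ Sal 1 and SVZ METH 2.

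The other members went with other genes. Gabra5 was most like Cpne6 (r = 0.97) and Slit1 (0.95), Gabrb1 like Pcdh19 (0.95) and Nexmif (0.95), Gabra2 like Ntrk3 (0.94) and Amer3 (0.93), Gabrb2 like AABR07029417.1 (0.90) and Ttbk2 (0.89), and Gabra3 like Timp2 (0.87) and Dpp10 (0.83). Among the members themselves, Gabra2, Gabra5 and Gabrb1 varied together over the 32 samples (r = 0.77 to 0.88) and opposite to Gabra4, Gabrb2 and Gabrd (r = −0.70 to −0.41). This pattern was not present in every region: in the NAc, Gabra2 had r of 0.87 with Gabrd and −0.05 with Gabrb1, and Gabrb1 had 0.66 with Gabrb2, whereas in the SVZ, with its samples of high thalamic markers, Gabra2 had −0.87 with Gabrd and 0.95 with Gabrb1, and Gabrb1 −0.90 with Gabrb2. Gabra3 had no correlation beyond 0.39 in size with any other member over the 32 samples. In the DG it was correlated with Gabra5 at −0.72 and with Gabrb2 at 0.68 (n = 8).

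The rest of the GABA system was followed through 43 genes in 5 lists. None of their members was called in any METH comparison. In the DG, Gabrg3, which encodes a minor gamma subunit, was at −1.05 ± 0.45 on the log2 scale (FDR 0.382). Genes for receptor clustering and trafficking gave 2 higher of 15 at an unadjusted p under 0.05, against 6.35% of all genes, and 1 without DG Sal 3. The 2 were Iqsec3, a synaptic exchange factor that binds gephyrin, at 0.51 ± 0.17 (FDR 0.280), and Slitrk3, a synaptic adhesion protein, at 0.62 ± 0.27 (FDR 0.387). The latter was named after its value was seen. The genes for GABA synthesis, uptake and breakdown were below 0 in the DG in 8 of 8 cases, with a median log2 fold change of −0.51 against −0.01 over all genes, and none of them reached that p. Without DG Sal 3, the library with striatal markers, 7 of the 8 were above 0, with a median of 0.10 against 0.02. Interneuron markers were likewise below 0 in 7 of 7 cases, with a median of −0.63, and without DG Sal 3 in 3 of 7, with a median of 0.0039. Their summed level was 2142 CPM in DG Sal 3, 456 to 944 CPM in the other saline and 528 to 789 CPM in the METH DG samples. In the CA the same synthesis genes were above 0 in 8 of 8 cases, with a median of 0.15 against 0.0051 over all genes. None of them reached an unadjusted p under 0.05 there either.

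In the other regions few genes of these lists stood out. In the CA, Gabbr2, a GABA-B receptor subunit, was at −0.24 ± 0.09 (FDR 0.669). In the SVZ, Slc12a5, the neuronal chloride exporter, was at −0.41 ± 0.14 and Slc6a13, a GABA transporter of meninges and liver, at −1.42 ± 0.61 (both FDR 0.979). Between saline regions, 1 gene of the lists was called, Gabrr2, a rho subunit, in CA against SVZ, where 0.812% of all genes were called. It was higher in the CA by 2.71 on the log2 scale (FDR 0.00836) at mean levels of 0.655 and 0.0942 CPM per kb. In the NAc against the CA, where 5 of 8 synthesis and uptake genes reached an unadjusted p under 0.05, all higher in the NAc, against 13.6% of all genes in that direction, Slc32a1, the vesicular GABA transporter, was higher by 2.17 ± 0.46 and Abat, which breaks GABA down, by 1.08 ± 0.23 (both FDR 0.0298).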

How the data were processed

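RNA-seq counts from 32 samples (4 regions, saline or METH, 4 replicates each) were used. Per the file headers and the labels, the authors trimmed reads with cutadapt 2.7, checked them with FastQC 0.11.4, aligned them to rn6 with STAR 2.5.2b and counted them per gene with featureCounts 1.6.3 against Ensembl 95 without regard to strand, at a mapping quality of at least 10. The deposited counts were not normalized. A deposited matrix of counts for 14714 genes, of which 5 held the same values in all samples as the files per sample, was used only as an alternative. 

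Tests used edgeR 4.0.16 (R 4.3.3): upper-quartile normalization, filterByExpr with a minimum count of 10, quasi-likelihood F tests and Benjamini-Hochberg adjustment over all genes tested. A call needed FDR under 0.01 and a fold above 1.5 (METH against saline, each region fitted alone, and the interaction of DG and CA) or above 2 (6 pairs of regions in 1 fit of the 16 saline samples). The SE of a log2 fold change was taken as its size over the root of the F statistic. CPM used upper-quartile library sizes, and levels per kb divide by exonic length. Correlations used log2(CPM + 1) over genes with a mean of at least 1 CPM. Depth was 11094002 to 21869773 counts per sample. No GEO label states that replicates are separate animals, so p-values measure the spread between samples, which may in part be technical. Of the 10 pairs of groups checked, only saline NAc and CA samples, which carry the same library numbers, deviated together weakly in every pair (r of 0.11 to 0.252). NAc replicate 4 was more alike with a CA sample of another number. In the other 9, not every pair deviated together. The reported fits left this pairing out, and the replicate block used it as an alternative. METH NAc and CA samples also carry the same numbers but were not compared, and DG replicates 3 and 4 share theirs with the NAc and CA. Any 2 replicates of a group (48 pairs) differed by more than sampling noise, with a chi-square per gene of at least 15.4.

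Members and gene lists were chosen with earlier results of these data known. Genes named beyond the members were the 2 most like each member and, in each comparison, up to 3 list genes with the lowest p under 0.05. Alternatives were TMM, DESeq2 1.42.0, edgeR's likelihood ratio test, no count filter, a replicate block and 1 fit of all 32 samples. Others were RNA integrity or run as a covariate, RUVr factors, the matrix, a fold of 2, and leaving out samples. For METH against saline in the SVZ, METH libraries of the same number were also summed, and no alternative there called a member. Run was inferred from the column headers of the counts and not stated by the labels, with merged counts (CA Sal 1 and 2) as a level of their own. It was a covariate in the NAc and CA only. The tests were tried on simulated counts with known changes before use. Some items of the lists are not reported here.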

Additional observations from a re-analysis of the deposited data

Results flagged for a closer look

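In 6 of the 56 sets of 4 samples (7 members in 8 groups), 1 sample stood apart from the other 3 by a gap that took up most of the whole range and passed Dixon's limit. For independent sets of normal values, chance alone would give about 1 in 20. The sets here share libraries and were taken on the CPM scale, so no excess can be read from this count. Both Gabra4 and Gabrd were highest in SVZ Sal 1, at 433 CPM against 185 to 224 CPM in the other saline SVZ samples and at 164 CPM against 41.2 to 60.5 CPM. That library also held the highest thalamic marker sum of the SVZ, at 2080 CPM. Gabrd was lowest in NAc METH 3, at 2.93 CPM against 40.7 to 46.7 CPM, and that library held the lowest striatal marker sum of the NAc, at 151 CPM. Gabra5 was highest in DG Sal 1, at 137 CPM against 43.2 to 57.4 CPM, and the dentate marker sum was also highest there among the saline DG samples, at 232 CPM. Gabra3 was lowest in CA METH 3, at 39.5 CPM against 68.0 to 72.8 CPM. Gabrb1 was lowest in NAc Sal 1, at 39.6 CPM against 76.4 to 78.3 CPM, and the striatal marker sum was highest there, at 8068 CPM. The part of the markers in these values was not tested.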

How the results depend on the processing

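No member was called as reported, and most estimates kept their direction: of 1400 alternative estimates over the 77 members and comparisons, 1301 kept direction and side, 87 changed sign and 12 became calls, and 49 of the 77 never changed sign. Of METH against saline in the DG, DESeq2 and the likelihood ratio test each called 1 member. For saline NAc against CA, the same tests and leaving out DG Sal 3 and SVZ Sal 1 (chosen after seeing the data) each called 1. For saline CA against SVZ, DESeq2 and the likelihood ratio test each called 2, the fit of 32 samples and leaving out DG Sal 3 and SVZ Sal 1 each called 1, and leaving out 1 replicate called 0 to 1, with the call (Gabra5) arising without SVZ Sal replicate 1. The causes were not tested. For the saline pairs, the shares of all genes called under these settings are not given here. Those counts therefore cannot be read as particular to the members. The replicate block called 0 members in every comparison. Leaving out SVZ Sal 1, METH 2 and METH 4 was also chosen after seeing the data.

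The estimates that changed sign under settings other than leaving out 1 sample were these. For METH against saline in the NAc, Gabra3 was −0.023 with TMM, −0.024 with DESeq2, −0.012 without the filter, −0.0068 in the fit of 32 samples and −0.23 with sequencing run as a covariate. With run, Gabra4 was 0.22 and Gabrd 0.083. With RNA integrity as a covariate, Gabra5 was 0.061, Gabrb1 0.24 and Gabrb2 0.038. Gabrb1 was also 0.010 with the replicate block, 0.017 with 2 RUVr factors and 0.0064 with 4. In the DG, Gabrd was 0.036 without replicates 1 and 2 of both treatments. In the CA, with run, Gabra5 was 0.12 and Gabrb2 −0.030. In the SVZ, without SVZ Sal 1, METH 2 and METH 4, Gabra3 was 0.038, Gabra5 0.28 and Gabrb2 −0.15. For saline NAc against CA, Gabra3 was 0.018 with the replicate block. For saline DG against CA, Gabra4 was −0.025 with TMM and with DESeq2, −0.0073 without the filter, −0.011 with the replicate block, −0.26 without DG Sal 1 and 2 and −0.056 without DG Sal 3 and SVZ Sal 1, and Gabrd was −0.18 without DG Sal 1 and 2. Without DG Sal 3 and SVZ Sal 1, DG against SVZ was −0.22 for Gabra2 and 0.41 for Gabrb2, and CA against SVZ 0.097 for Gabrb2.

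Leaving out 1 sample in turn changed the sign of these estimates, with the lowest and highest values given. For METH against saline in the NAc, they ran from −0.096 to 0.039 for Gabra2, −0.22 to 0.15 for Gabra3, −0.48 to 0.057 for Gabra4, −0.22 to 0.072 for Gabrb1, −0.24 to 0.040 for Gabrb2 and −0.50 to 0.14 for Gabrd. For METH against saline in the DG, they ran from −0.55 to 0.10 for Gabrd. For METH against saline in the CA, they ran from −0.086 to 0.28 for Gabra2, −0.30 to 0.11 for Gabra5 and −0.018 to 0.25 for Gabrb2. For METH against saline in the SVZ, they ran from −0.29 to 0.063 for Gabra3, −0.38 to 0.23 for Gabra4, −0.93 to 0.26 for Gabra5, −0.40 to 0.037 for Gabrb1, −0.20 to 0.73 for Gabrb2 and −0.58 to 0.52 for Gabrd. For saline NAc against DG, they ran from −0.31 to 0.097 for Gabrb1. For saline NAc against CA, they ran from −0.34 to 0.30 for Gabra3. For saline NAc against SVZ, they ran from −0.031 to 0.76 for Gabrb2. For saline DG against CA, they ran from −0.064 to 0.57 for Gabra3, −0.16 to 0.20 for Gabra4 and −0.15 to 0.51 for Gabrd. For saline DG against SVZ, they ran from −0.064 to 0.46 for Gabra2 and −0.32 to 0.48 for Gabrb2. For saline CA against SVZ, they ran from −0.094 to 0.54 for Gabra3 and −0.70 to 0.099 for Gabrb2. For the METH effect in the DG against that in the CA, they ran from −0.057 to 0.60 for Gabrd.

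Every member was covered by 43 or more reads in every sample, and p-values rest on 4 samples a group. The DG estimates include the samples with crossed library numbers and DG Sal 3, the only saline DG sample that shares an inferred run with METH DG samples. The SVZ estimates include the 3 samples with high thalamic markers.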
